A study of Rattus norvegicus with 14 samples.

Results

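The pyruvate dehydrogenase complex and the tricarboxylic acid (TCA) cycle were followed through 9 of their genes, Pdha1, Pdhb, Cs, Idh3a, Idh3g, Ogdh, Suclg1, Sucla2 and Mdh2, in colonocytes of rats on a normal-protein (NPD) or a high-protein (HPD) diet. The genes were given by name, and every non-control array probe whose gene name equalled one of them was used. All 9 were on the array, out of 26276 gene names, and they were measured by 11 of 30367 probes, since Pdha1 and Ogdh had 2 probes each. Male Wistar rats received an NPD with 14% or an isocaloric HPD with 55% of energy from protein for 15 days, with no genetic change in either group, and the diets were balanced by digestible carbohydrate. Colonic epithelial cells were detached from the colon by EDTA perfusion, and their RNA was hybridised to 1-colour Agilent arrays, 1 array per rat, with 7 NPD and 7 HPD arrays analysed here. The arrays lay on 2 slides, 4 NPD and 3 HPD arrays on slide 1 and 3 NPD and 4 HPD arrays on slide 2.

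Pyruvate dehydrogenase joins glycolysis to the TCA cycle, turning pyruvate into acetyl-CoA inside the mitochondrion. Citrate synthase then joins acetyl-CoA to oxaloacetate, and the cycle oxidises the product step by step, handing electrons to the respiratory chain. In colonocytes the acetyl-CoA that enters the cycle comes largely from butyrate made by the luminal bacteria, with glucose and glutamine as further fuels.

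The values are log2 spot intensities after background subtraction, centred on each array's median, so that a value of 0 is the median spot of the array. All 11 probes were well above background on all 14 arrays and none was saturated. When all probes were ranked by mean signal and cut into 10 equal bins, 5 of the 11 fell in bin 10, the brightest, 5 in bin 9 and 1, Idh3a, in bin 8. A level of one probe is not set against that of another here, because probes differ in how well they hybridise.

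Each probe is a 60-base oligonucleotide on the array. The positions given by the files are those of the rat build rn4, and 10 of the 11 probes carry a RefSeq accession that the current RefSeq table lists under the same symbol; the exception is probe 2 of Ogdh, designed on a cDNA clone. The Pdhb probe (chr15:18740251-18740642, plus strand) and the Sucla2 probe (chr15:54264543-54265469, plus strand) cover 392 and 927 bases of the genome, more than their own length. They are shown whole, as the pair whose span is that of a probe laid across joined exons:
Pdhb: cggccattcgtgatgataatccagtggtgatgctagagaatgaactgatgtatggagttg
Sucla2: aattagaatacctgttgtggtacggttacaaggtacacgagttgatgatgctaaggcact
The Pdha1 probes (chrX:55913153-55913212 and chrX:55913260-55913319, plus strand) and the Ogdh probes (chr14:87090708-87090767 and chr14:87091041-87091100, plus strand) lie close together within each gene. Their first 30 bases are shown because the results below turn on whether the probes of a gene gave the same answer:
Pdha1 probe 1: ggtggtgggttctctgttccacctataaag
Pdha1 probe 2: atccaaacagaaatgtaaatgtgctgtgaa
Ogdh probe 1: gcccccctgtgtccatgacgctctttgctt
Ogdh probe 2: tcagtccttgtcacccatcaagtcacagat
The remaining probes lie at chr7:1652129-1652188 (Cs, plus), chr8:58155604-58155663 (Idh3a, plus), chrX:159701384-159701443 (Idh3g, minus), chr4:106601409-106601468 (Suclg1, plus) and chr12:22025592-22025651 (Mdh2, minus). G and C made up 35% of both Pdha1 probes, 36.7% of the Suclg1 probe and 51.7% of Ogdh probe 1, the highest share, with the other probes between 41.7% and 45.0%.

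None of the 11 probes was differentially expressed between HPD and NPD at a q-value below 0.1 (limma with a diet term alone, adjusted by Benjamini-Hochberg over all 30367 probes). Over the whole array 21 probes passed, which is 0.0692%, all of them higher in HPD. At an unadjusted p under 0.05, 2 of the 11 probes passed, Cs higher and Ogdh probe 2 lower, beside 13.6% of all probes. With the brightest probe for each gene, 4 of 9 genes had a lower mean in HPD, beside 29.3% of all probes, and the median log2 difference of the 9 was 0.10 (array medians over the 9 genes 5.27 ± 0.10 in NPD and 5.32 ± 0.19 in HPD, SD, n = 7 each). This median was not stable in sign, being -0.02 after cyclic loess and -0.03 with the mean over all probes of a gene, each with 5 of 9 genes lower. The median over all probes was itself 0.17, so that a probe with that difference moved as the median probe did. This shift varied with signal, from 0.03 in bin 7 to 0.30 in bin 1, and was 0.09, 0.15 and 0.19 in bins 8, 9 and 10. Relative to the median over all probes 4 genes, Pdha1, Cs, Idh3g and Suclg1, lay above and 5, Pdhb, Idh3a, Ogdh, Sucla2 and Mdh2, lay below. In bulk RNA, fewer cells of a type and less RNA per cell cannot be told apart.

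**Figure D1:**
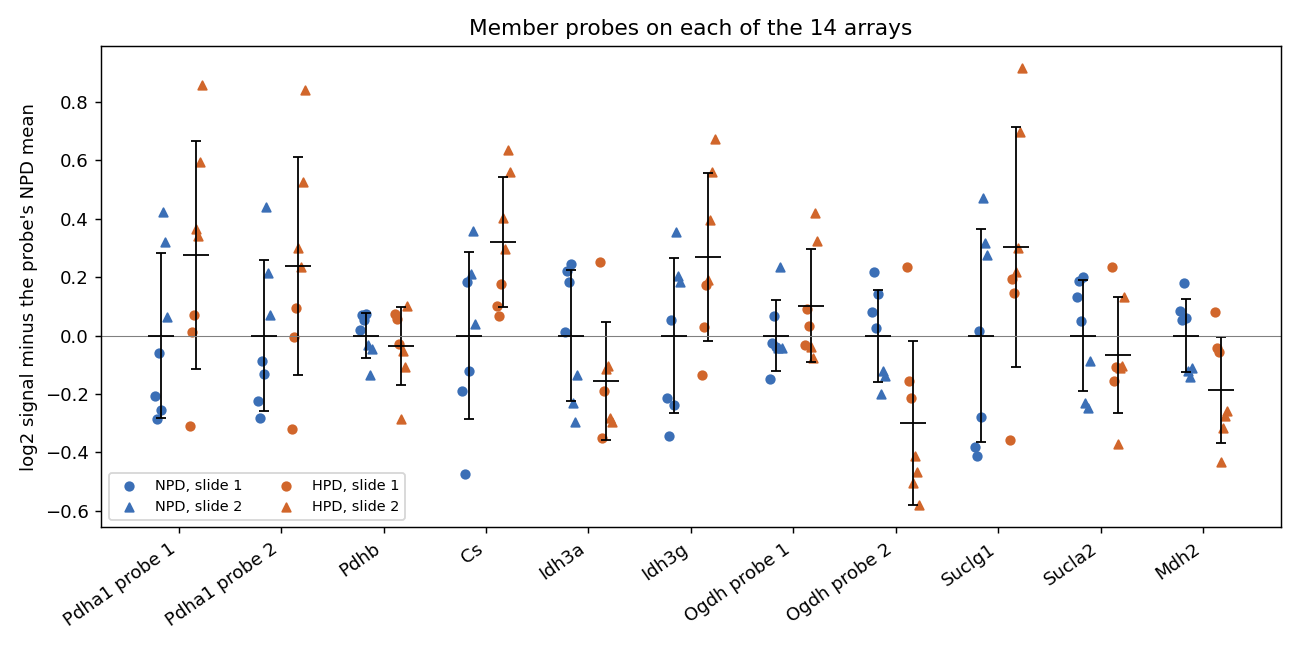
Each point is 1 array, drawn as its log2 signal minus the NPD mean of that probe, with circles for slide 1 and triangles for slide 2; bars give the mean ± SD of each diet (n = 7). The diets overlap at every probe, and all 7 HPD arrays lie above the NPD mean only for Cs.

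Pyruvate dehydrogenase E1, the first enzyme of the complex, is built of alpha and beta subunits, and its 2 subunit genes gave different pictures. Probe 1 of Pdha1, which encodes the alpha subunit, ranged from 6.23 to 6.94 in NPD (median 6.46) and from 6.20 to 7.37 in HPD (median 6.86). The HPD arrays held both the lowest and the highest of these values. The mean was 0.28 ± 0.18 (SE) higher in HPD on the log2 scale, with a 95% confidence interval of -0.11 to 0.66 and a limma q-value of 0.404 (exact two-sided permutation test over 3432 splits of the arrays, p = 0.160).

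Probe 2 of Pdha1 differed by 0.24 ± 0.17 (limma q-value 0.441). The 2 probes followed each other closely over the 14 arrays (r = 0.988), and the difference between them did not separate the diets (0.04 on the log2 scale; exact permutation test, p = 0.266). Pdhb, which encodes the beta subunit, lay between 4.61 and 4.82 in NPD (median 4.76) and between 4.46 and 4.84 in HPD (median 4.71). Its HPD mean was lower by only 0.03, that is -0.03 ± 0.09 (limma q-value 0.835, 95% confidence interval -0.24 to 0.17), and this sign turned when HPD replicate 4 was left out (0.01). The NPD range lay inside the HPD range.

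Citrate synthase (Cs), which opens the cycle, had the largest positive difference of the 9 genes in this fit. Its values ran from 6.21 to 7.04 in NPD (median 6.72) and from 6.75 to 7.32 in HPD (median 6.98). All 7 HPD arrays were above the NPD mean, though the groups overlapped. The mean was 0.32 ± 0.15 (SE) higher in HPD, a fold of 1.25 with a 95% confidence interval of 1.01 to 1.55, with a limma q-value of 0.363 (exact permutation test, p = 0.0385). The difference was 0.27 on each slide taken alone. It was 0.25 when arrays were centred after the spots of a probe had been averaged, with an exact permutation p of 0.0734, and 0.16 after cyclic loess, with an exact permutation p of 0.053.

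The NAD-dependent isocitrate dehydrogenase, which releases the cycle's first carbon dioxide, is made of a catalytic alpha subunit and regulatory beta and gamma subunits. Idh3a, the alpha subunit gene, ranged from 2.63 to 3.18 in NPD (median 2.95) and from 2.58 to 3.18 in HPD (median 2.74). In 6 of 7 HPD arrays it was below the NPD mean, and the remaining array, HPD replicate 1, was the highest of all 14. The difference was -0.15 ± 0.13 (limma q-value 0.495; exact permutation test, p = 0.199), made up of -0.26 on slide 1 and 0.02 on slide 2. Idh3g, the gamma subunit gene, ranged from 7.51 to 8.21 in NPD (median 7.91) and from 7.72 to 8.53 in HPD (median 8.05). Its difference was 0.27 ± 0.15 (limma q-value 0.368; exact permutation test, p = 0.0944) and was 0.21 within each slide. After quantile normalization it was 0.09 with an exact permutation p of 0.0431. Idh3b, which encodes the beta subunit and was measured as one of the linked genes, had a difference of -0.25 ± 0.19 (limma q-value 0.468).

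Ogdh encodes the first enzyme of the 2-oxoglutarate dehydrogenase complex, a relative of pyruvate dehydrogenase that makes succinyl-CoA. Its probes disagreed. Probe 1 lay between 5.06 and 5.44 in NPD (median 5.17) and between 5.13 and 5.62 in HPD (median 5.24), with a difference of 0.10 ± 0.11 (limma q-value 0.591). This sign was not stable to scaling, being -0.02 with centring on the mean and -0.04 after quantile normalization. Probe 2 lay between 4.48 and 4.89 in NPD (median 4.70) and between 4.10 and 4.91 in HPD (median 4.26).

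Probe 2 was below the NPD mean in 6 of 7 HPD arrays, and HPD replicate 1 had the highest value of all. Its difference was -0.30 ± 0.13, a fold of 0.81 (limma q-value 0.363; exact permutation test, p = 0.0338), and -0.40 after cyclic loess with an exact permutation p of 0.0653. Over the 14 arrays the 2 probes ran in opposite directions (r = -0.504), and the gap between them was 0.53 ± 0.23 in NPD and 0.93 ± 0.41 in HPD (SD, n = 7 each; exact permutation test of the gap, p = 0.0408). This gap is free of array centring, since both probes were read on the same array. It is not free of slide, which the permutation test left out. Probe 2 differed by -0.36 between slide 2 and slide 1 (limma q-value 0.00753). On slides 1 and 2 taken alone, the diet difference was 0.07 and 0.11 for probe 1 and -0.16 and -0.34 for probe 2. Whether probe 2 reads the same transcript as probe 1 was not tested.

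**Figure D2:**
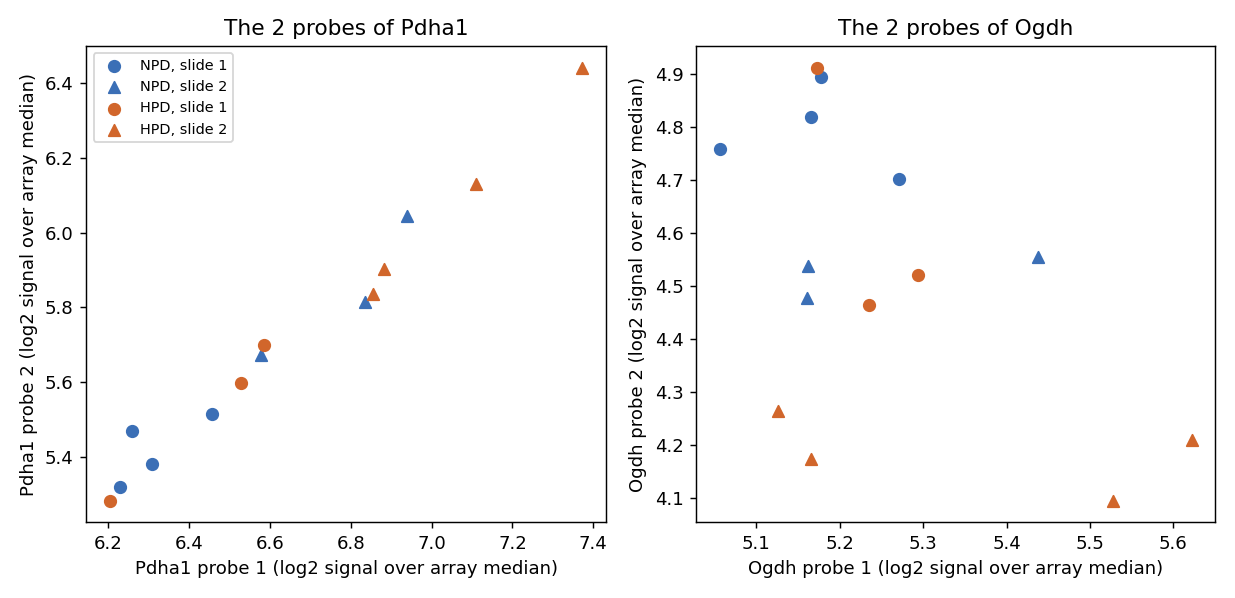
Log2 signal of probe 2 (vertical) against probe 1 (horizontal) for Pdha1 and Ogdh, 1 point per array, coloured by diet and shaped by slide. The Pdha1 probes fall on a line (r = 0.988), whereas the Ogdh probes do not (r = -0.504), and the 4 HPD arrays of slide 2 have the lowest values of Ogdh probe 2.

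Succinyl-CoA synthetase, which makes GTP or ATP from succinyl-CoA, shares the alpha subunit encoded by Suclg1 between its forms, while Sucla2 encodes the beta subunit of the ATP-forming one. Suclg1 ranged from 8.50 to 9.38 in NPD (median 8.93) and from 8.55 to 9.83 in HPD (median 9.13). It differed by 0.30 ± 0.20 (limma q-value 0.411; exact permutation test, p = 0.174), with 6 of 7 HPD arrays above the NPD mean. Sucla2 ranged from 4.23 to 4.68 in NPD (median 4.53) and from 4.11 to 4.72 in HPD (median 4.37), a difference of -0.07 ± 0.12 (limma q-value 0.742). On slide 1 this was -0.15 and on slide 2 it was 0.08, so the slides differed in sign. Suclg2, the beta subunit gene of the GTP-forming enzyme and a linked gene here, had a difference of 0.28 ± 0.13 (limma q-value 0.363; exact permutation test, p = 0.0128) with all 7 HPD arrays above the NPD mean.

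Mdh2, the mitochondrial malate dehydrogenase that restores oxaloacetate, had the most negative difference of the genes with 1 probe. Its values ran from 5.05 to 5.37 in NPD (median 5.24) and from 4.76 to 5.27 in HPD (median 4.93), and 6 of 7 HPD arrays were below the NPD mean. The difference was -0.19 ± 0.11, a fold of 0.88 with a 95% confidence interval of 0.75 to 1.03 (limma q-value 0.368; exact permutation test, p = 0.0425). It was -0.10 on slide 1 and -0.20 on slide 2. After cyclic loess it was -0.30 with an exact permutation p of 0.0839. Mdh1, the cytosolic enzyme, had a difference of -0.0038 ± 0.10 (limma q-value 0.985).

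**Figure D3:**
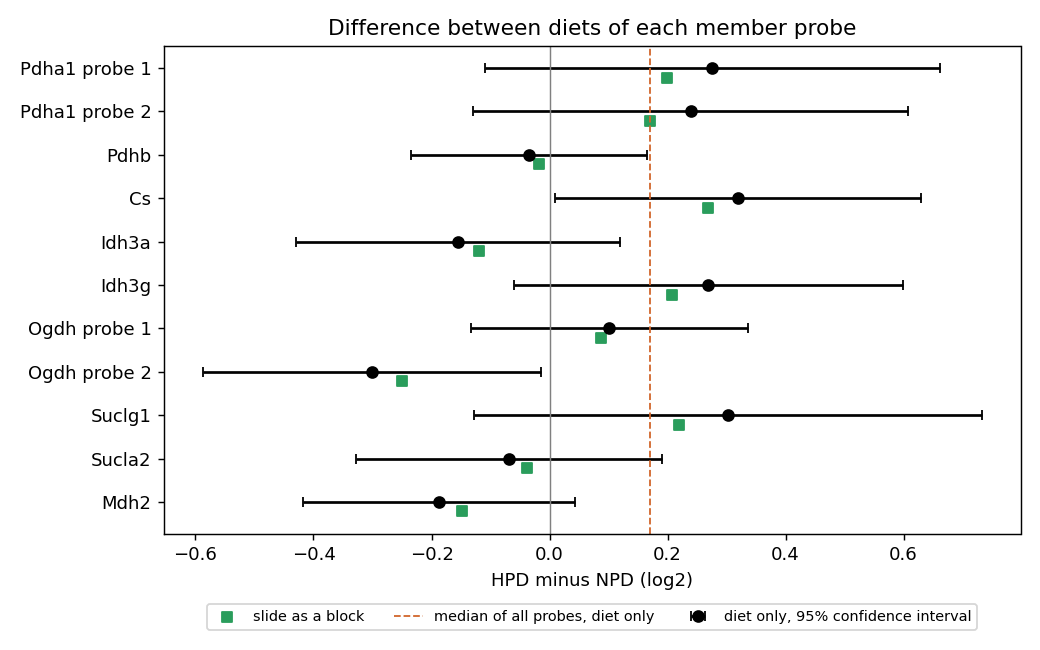
HPD minus NPD on the log2 scale for each probe (black points, with 95% confidence intervals), the same with slide as a block (green squares) and the median of all probes (dashed line, 0.17). The intervals of Cs and of Ogdh probe 2 leave out 0, and no probe passed the q-value threshold.

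For each of the 11 probes the estimated difference between slides was larger than that between diets. When limma was given both terms, 8 of the 11 probes differed by slide at a q-value below 0.1, as did 12791 of the 30367 over the whole array. On slide 2, Suclg1 was 0.58 higher, Pdha1 probe 1 0.54 higher, Idh3g 0.43 higher and Cs 0.36 higher on the log2 scale (limma q-values 0.00549, 0.00267, 0.00536 and 0.0197). Ogdh probe 2 was -0.36, Mdh2 -0.27 and Idh3a -0.25 (limma q-values 0.00753, 0.0102 and 0.0901). The genes that were higher on slide 2 were thus those with positive diet differences, and those lower on slide 2 had negative ones. Slide 2 held 4 of the 7 HPD arrays against 3 of the 7 NPD arrays. With slide as a block the diet differences kept their signs and shrank, to 0.27 ± 0.11 for Cs (limma q-value 0.241), -0.25 ± 0.09 for Ogdh probe 2 (limma q-value 0.212) and -0.15 ± 0.07 for Mdh2 (limma q-value 0.290), and no probe was called.

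The same division ran through the correlations between genes, which are given as a description over 14 arrays that share slides and array centring. Pdha1, Cs, Idh3g and Suclg1 moved together from array to array, with r from 0.853 (Cs and Suclg1) to 0.970 (Idh3g and Suclg1). Pdhb, Sucla2, Mdh2 and Idh3a formed another set, with r from 0.400 (Pdhb and Idh3a) to 0.832 (Pdhb and Sucla2). Between the sets r was negative for all pairs, down to -0.819 for Idh3a and Suclg1. Once the means of diet and slide were removed, the median r over the 36 pairs moved from -0.216 to 0.382. The alpha and beta subunits of pyruvate dehydrogenase went from -0.399 to 0.353 and Pdha1 and Mdh2 from -0.803 to 0.09. Idh3a stayed negative with Suclg1 (-0.631), Pdha1 (-0.505), Idh3g (-0.436), Ogdh (-0.346) and Cs (-0.21). Within its own set Idh3a fell from 0.642 to 0.025 with Mdh2 and from 0.400 to -0.0006 with Pdhb, and kept 0.508 with Sucla2.

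**Figure D4:**
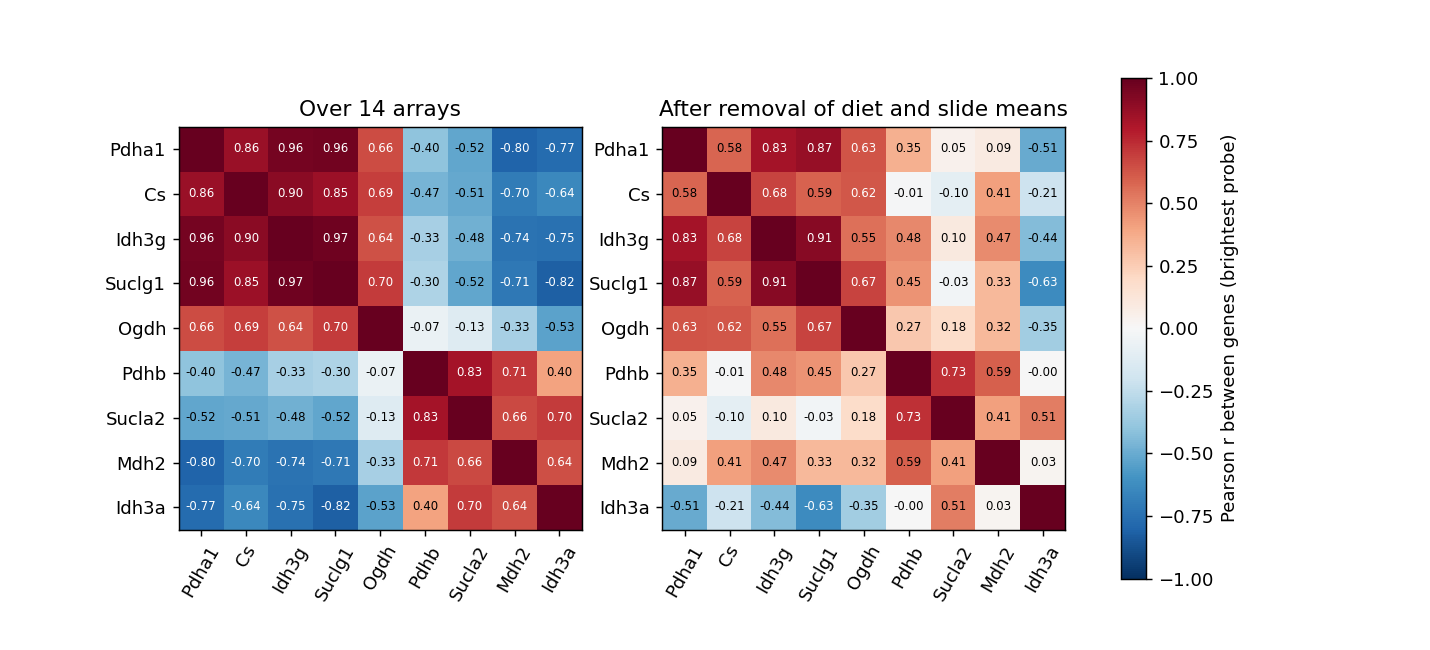
Pearson r between the 9 genes (brightest probe of each) over 14 arrays, before (left) and after (right) removing the means of diet and slide. On the left, Pdha1, Cs, Idh3g, Suclg1 and Ogdh form one positive block and Pdhb, Sucla2, Mdh2 and Idh3a another. On the right, most of the negative values between the blocks are gone, but those of Idh3a remain.

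No array had all 9 genes above their own means, and HPD replicate 7 had the most, 7 of 9. By mean standardised value over the 9 genes the arrays lay between -0.57 (HPD replicate 4) and 0.98 (HPD replicate 7), both on slide 2, and the NPD arrays between -0.36 and 0.31. The genes most like this mean among 12328 probes well above background were Glrx3 (r = 0.933 over 14 arrays), Vps29 (0.888), Tpi1 (0.880), Ttpa (0.873) and Ndfip1 (0.866). None of these was differentially expressed (limma q-values 0.421 to 0.789).

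The linked genes of the pathway, fixed as a list of 37, were all on the array. None was called in either direction by the diet-only fit, beside 0.0692% of all probes. At an unadjusted p under 0.05, 3 of the 37 were higher (Pdha2, Acly and Suclg2) and 3 lower (Pdk1, Pdk3 and Idh1) in HPD. Of all probes 13.6% passed this threshold in either direction. The median difference of the 37 was 0.22 on the log2 scale against 0.17 for all probes. Of the 12 remaining core subunits 9 had a higher mean in HPD, with a median of 0.24. Among the partners of the genes above, Dlst, the core of the 2-oxoglutarate complex, had 0.27 ± 0.15 (limma q-value 0.367), Dld, the subunit that the dehydrogenase complexes share, 0.24 ± 0.14 (0.368), Dlat, the core of pyruvate dehydrogenase, 0.13 ± 0.11 (0.509) and Pdhx, which anchors Dld to that core, -0.15 ± 0.17 (0.605). The other probe of Pdhx had the opposite sign, at 0.15. Sdha, the flavoprotein of succinate dehydrogenase, had 0.20 ± 0.11 (limma q-value 0.367, exact permutation test p = 0.0309).

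The kinases that switch pyruvate dehydrogenase off by phosphorylation included 2 of the lower genes. Pdk1 had a difference of -0.31 ± 0.13 (limma q-value 0.363; exact permutation test, p = 0.0111), with all 7 HPD arrays below the NPD mean. Pdk3 had -0.74 ± 0.29 (limma q-value 0.363; exact permutation test, p = 0.0367), with 6 of 7 below. Pdk2 had 0.22 ± 0.13 (limma q-value 0.370), and Pdk4 was well above background on 6 of 14 arrays. Acly, which splits cytosolic citrate into acetyl-CoA, had 0.45 ± 0.16 (limma q-value 0.363; exact permutation test, p = 0.0157). Pdha2, the alpha subunit form known from testis, had the largest difference of the list, 1.36 ± 0.45 (limma q-value 0.363, exact permutation test p = 0.0134). Its signal was well above background on 13 of 14 arrays but below the median spot in NPD (mean -1.31 ± 1.09, SD, n = 7). In the authors' normalized table with slide as a block Pdha2 was called higher, at 0.70, and Pdk1 and Pdk3 were called lower.

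The call depended on the processing. In the authors' own normalized table, which holds 1 row per gene name, a fit with slide as a block called 2 of the 9 genes, Ogdh at -0.25 (limma q-value 0.0673) and Mdh2 at -0.32 (limma q-value 0.0488), where 10.5% of its 26414 rows were called. Normexp background correction with quantile normalization and slide as a block called Mdh2 alone (-0.24, limma q-value 0.0817), beside 1.84% of all probes. Normexp with centring on the array median, chosen after seeing the data, called Mdh2 (-0.31) and Ogdh probe 2 (-0.42), 2 of 11 probes beside 38.3% of all probes, and the same 2 with slide as a block beside 44.1%.

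**Figure D5:**
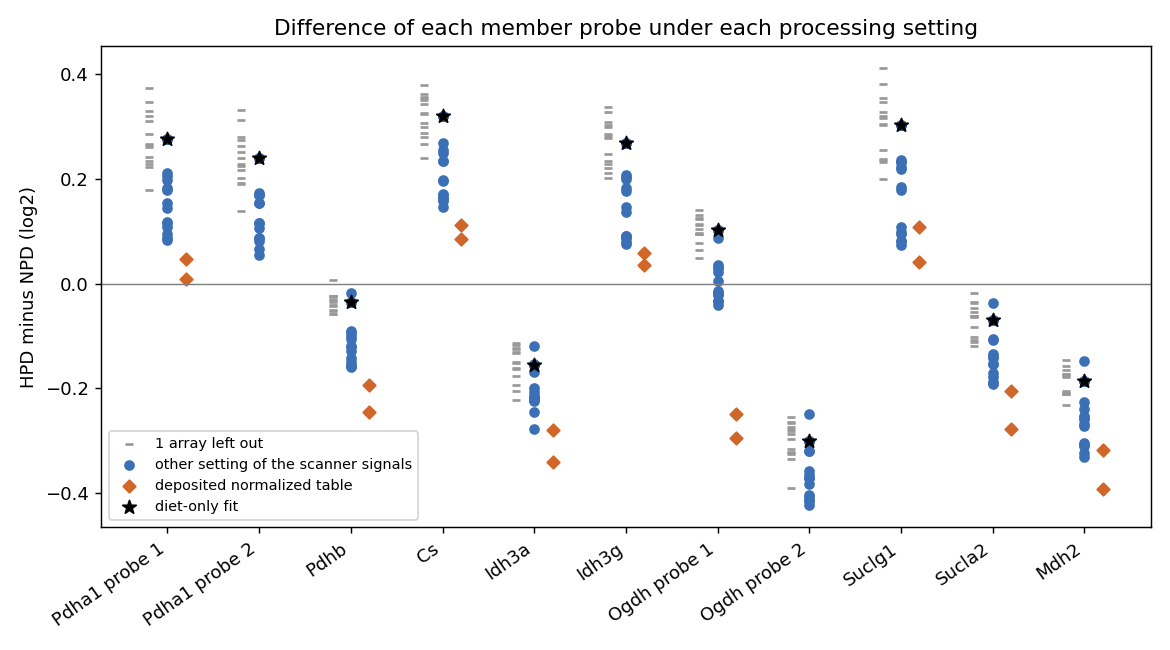
HPD minus NPD on the log2 scale for each probe under every processing setting: the diet-only fit (star), fits with 1 array left out (grey dashes), other settings of the scanner signals (blue) and the deposited normalized table (orange, placed at probe 1 of its gene). Pdha1, Cs, Idh3g and Suclg1 stay above 0 and Idh3a, Sucla2, Mdh2 and Ogdh probe 2 stay below it under every setting. Ogdh probe 1 crosses it, and Pdhb crosses it in 1 fit with an array left out.

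All 11 marker genes of colonic epithelium were well above background on all 14 arrays, as were 5 of 8 immune and 6 of 8 stromal and muscle markers. So were all 7 goblet and 4 enteroendocrine genes, but only 3 of 5 stem and cycling and 1 of 3 red blood cell genes. Each list is compared here between diets only, by its summed linear signal over the median spot, and no list is set against another. No marker gene was called in any list by the diet-only fit. In the authors' normalized table with slide as a block, Spink4 was called higher and Epcam, Agr2 and Top2a lower, beside 10.5% of all rows. The epithelial sum was 3149 to 4136 in NPD and 3319 to 5094 in HPD, with 8 of 11 genes higher in HPD and a median log2 difference of 0.21. The goblet cell sum was 2796 to 4171 in NPD and 2089 to 6251 in HPD, with 5 of 7 genes lower and a median of -0.28. However, Spink4, a secreted protease inhibitor, had 1.89 (limma q-value 0.363). The brightest probe of Muc2, a mucin, had 0.08, and its other probes had 0.56 and 0.83. Of 5 stem and cycling genes on the array 3 were lower and 2 higher, with a median of -0.39 and sums of 19.2 to 23.8 and 13.3 to 28.8. The brightest probe of Top2a, a topoisomerase of dividing cells, had -0.61 (limma q-value 0.363), but its other probe had 0.04. All 3 red blood cell genes were higher in HPD, with a median of 0.15 and sums of 20.3 to 34.1 and 27.2 to 89.9. Of these, Hba-a2, a haemoglobin chain, had 0.59 (limma q-value 0.363), and Hbb had 0.14 ± 1.15 (SE). The enteroendocrine sum was 306 to 657 in NPD and 233 to 794 in HPD (median -0.06), the immune sum 9.39 to 21.5 and 11.1 to 14.8 (median -0.02), and the stromal and muscle sum 6.97 to 15.3 and 6.60 to 13.2 (median 0.06). Of 8 genes that track mitochondrial content 0 were called and 7 had a higher mean in HPD, with a median of 0.14 beside 0.17 for all probes. The part of any of these in the differences above was not tested.

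The promoters of 8 of the 9 genes (all but Idh3a) were in the RefSeq table for build GRCr8, and were searched over the 250 bases before the start for CCGGAAG, the core that ETS factors such as GABP bind, and for the palindromic NRF1 motif, on both strands. These factors are known regulators of nuclear genes for mitochondrial proteins. CCGGAAG was in 2 of 8, Idh3g and Mdh2, beside 7.27% of 33469 promoters, and the NRF1 motif in 1 of 8, Sucla2, beside 3.75%. Idh3g and Mdh2, whose diet differences had opposite signs and were not called in the diet-only fit, are shown because they share CCGGAAG, given in capitals. They lie on the minus strand, at chrX:156675483-156675732 and chr12:26543842-26544091:
Idh3g: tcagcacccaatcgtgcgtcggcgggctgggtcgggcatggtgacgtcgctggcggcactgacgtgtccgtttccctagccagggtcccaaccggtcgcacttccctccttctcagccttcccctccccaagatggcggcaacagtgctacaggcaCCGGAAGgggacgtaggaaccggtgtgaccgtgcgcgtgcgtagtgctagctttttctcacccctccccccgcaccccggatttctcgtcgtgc
Mdh2: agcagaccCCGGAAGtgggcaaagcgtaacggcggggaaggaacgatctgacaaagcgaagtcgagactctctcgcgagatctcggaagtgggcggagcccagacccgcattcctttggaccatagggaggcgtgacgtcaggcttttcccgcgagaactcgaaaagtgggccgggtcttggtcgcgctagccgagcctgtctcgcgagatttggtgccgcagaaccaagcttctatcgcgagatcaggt
The motifs TGACGTCA and CCAAT were searched too and were in 2 and 3 of the 8 promoters, beside 1.59% and 34.0% of all. A match describes the letters and not binding.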

How the data were processed

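RNA of rat colonocytes was measured on 14 arrays, 7 per diet. The deposited scanner files, written by Agilent Feature Extraction 10.7.3.1, give every spot's intensity on a linear scale. The authors also deposited their own normalized log2 values, with a row for each gene name. Columns of no sample here numbered 0. Of 62976 spots per array, 58717 were not controls. Spots marked as outliers were not used. Signals after background subtraction were put on the log2 scale, the median over the spots of an array was taken off, and the spots of a probe were then averaged. The methods state this order but not the signal column or the centring statistic. The fit was made with limma 3.58.1 (R 4.3.3, with version 1.17.8 of data.table to read files), adjusted by Benjamini-Hochberg over all probes, with no filter on signal. Single probes were also compared by an exact two-sided permutation test over 3432 splits. The number of arrays limits the precision, and between 18926 and 21042 probes per array were well above background.

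The members and lists were chosen with earlier results of these data known. Named genes were all 9 members, the remaining subunits of their complexes, Pdha2, and listed genes that were called or had an exact p of 0.05 or below. Mdh1, Pdk2, Pdk4, Idh1 and Got1 were named after their values were seen. Alternatives covered signal column, centring, normalization, background correction, signal filter, slide, replicate number, trend, a q-value below 0.05, the deposited values and leaving out each array. Centring after averaging and normexp (offset 50) with median centring were added after seeing the data.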

Additional observations from a re-analysis of the deposited data

Results flagged for a closer look

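Of 22 sets of 7 arrays (11 probes in 2 diets), 1 had a value set apart from its group. The Idh3a value of HPD replicate 1 was 3.18 on the log2 scale, with the other 6 HPD arrays between 2.58 and 2.83, and its gap to the nearest array was 0.59 of the range of the group. About 1 in 20 such sets would be set apart by chance.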

How the results depend on the processing

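Over 32 alternatives no member probe was called in any but the normexp and deposited-table settings given here. The count was 1 with normexp and slide as a block and 2 in the authors' table once slide was a block, and, in settings added after seeing the data, 2 with median-centred normexp, with or without slide. With slide as a block in the authors' table, 1 of the 37 linked genes was called higher and 4 lower. Of all its rows 10.5% were called, 1050 higher and 1717 lower. The median difference of the 9 genes, 0.10, became -0.24 in that table without slide and -0.19 with it. It was also below 0 with the mean over all probes of a gene (-0.0348) and, since Ogdh probe 1 is then the middle gene, took the values of that probe below in the settings of the scanner signals that turned it, with 5 of 9 genes lower in each. Ogdh probe 1 turned to -0.021 with centring on the mean, -0.041 after quantile normalization and -0.0193 after cyclic loess. It was -0.0329 with normexp, -0.0184 with normexp and slide, -0.0149 with median-centred normexp and -0.0337 with slide added to that. The deposited table has 1 row per gene name and does not tell the probes apart. There Ogdh was at -0.294 without slide and -0.250 with it. Pdhb ranged from -0.0576 to 0.0071 with 1 array left out, and turned sign without HPD replicate 4. The causes were not tested. Centring after averaging took the all-probe median from 0.17 to 0.11, and cyclic loess to 0.00, and the calls over all probes from 21 to 17 and 14. Without HPD replicate 1 there were 59 calls over all probes, and 0 among the member probes. Same-numbered arrays did not deviate together throughout (r from -0.09 to 0.39), so the numbers were not taken to pair animals. With the replicate number as a block 0 member probes were called, the calls over all probes went from 21 to 11, and Cs had a limma q-value of 0.152.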
